A study of Mus musculus with 4 samples.

Results

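Chondrocytes of the growth plate that carried transcripts of both *Epyc* and *Serpina1a* were taken from 4 single-cell RNA-seq libraries of the long-bone metaphysis of 12-week-old mice, 2 of Lats2iECKO mutants and 2 of controls. In the mutants, *Lats2* flanked by lox sites was deleted by tamoxifen through Cdh5(PAC)-CreERT2, a Cre driven by an endothelial promoter, so the cells described here were not the cells in which Cre was made. The controls were Cre-negative littermates that had received tamoxifen too, and all animals were on a C57BL/6 background. Femur and tibia metaphyses were crushed and digested, and cells of the blood lineages were depleted with magnetic beads before droplet capture with the 10x Chromium 3′ chemistry. The labels do not say how many animals went into a library, so the tests below measure the spread between libraries.

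A barcode was a member when it held at least 1000 unique molecular identifiers (UMIs, counted molecules) and 800 genes, under 15% mitochondrial and 5% haemoglobin UMIs, at least 50 *Col2a1* and under 20 *Col10a1* UMIs per 10000, at least 5 UMIs of *Epyc* and *Serpina1a* together with both detected, at most 1 UMI of *Ihh* and *Panx3*, at most 2 of *Mki67* and *Top2a*, at most 2 of *Chil1* and *Sfrp5*, and none of *Cdh5*. The members were thus chosen by the counts of these 11 genes, whose values are given as a description. The rule kept 591 of 24739 barcodes that passed the filters, and 591 of 5439 chondrocytes (barcodes at the *Col2a1* minimum without *Cdh5*). They were 86 and 83 cells in the mutant libraries and 202 and 220 in the controls. The whole libraries held between 69636600 and 85899079 UMIs, and no barcode was a member in 2 libraries, although 2 member barcodes also stood among the filtered barcodes of another library.

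Chondrocytes of the growth plate pass in columns from a resting zone through flattened, dividing cells to prehypertrophic and hypertrophic cells. They build a matrix of type II, IX and XI collagen and aggrecan, and signal to each other through Indian hedgehog, made by prehypertrophic cells, and parathyroid hormone-related protein. The cartilage has no vessels of its own, and hypoxia-inducible factor 1 (HIF-1) is needed for its cells to survive and to run glycolysis. *Epyc* encodes epiphycan, a small leucine-rich proteoglycan of growth plate cartilage, and *Serpina1a* encodes a mouse alpha-1 antitrypsin, an inhibitor of serine proteases that liver secretes in large amounts.

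*Epyc* lies on chromosome 10 (GRCm39, 97479853 to 97518316, plus strand). *Serpina1a* lies on chromosome 12 (103819554 to 103832088, minus strand) beside copies that arose by duplication, and reads that matched several of them were shared out by the authors' expectation maximization, so the level of any 1 copy is uncertain. The last 150 coding bases are shown, stop codon included, because the region before the stop codon holds the reactive centre loop that decides which protease is bound. Capitals mark bases that differ from *Serpina1a* (GENCODE annotation on GRCm39, minus strand, in the order chr12:103819934-103820083, chr12:103694501-103694650, chr12:103861271-103861420, chr12:103729939-103730088 and chr12:103913277-103913426).
Serpina1a: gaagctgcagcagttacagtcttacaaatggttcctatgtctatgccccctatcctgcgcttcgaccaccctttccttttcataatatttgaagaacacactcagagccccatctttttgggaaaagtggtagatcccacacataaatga
Serpina1b: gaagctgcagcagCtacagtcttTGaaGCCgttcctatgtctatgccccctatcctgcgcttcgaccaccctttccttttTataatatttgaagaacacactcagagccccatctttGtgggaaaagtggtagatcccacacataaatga
Serpina1c: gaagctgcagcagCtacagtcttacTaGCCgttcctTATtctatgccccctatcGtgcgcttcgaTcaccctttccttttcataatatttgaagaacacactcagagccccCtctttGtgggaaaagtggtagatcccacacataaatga
Serpina1d: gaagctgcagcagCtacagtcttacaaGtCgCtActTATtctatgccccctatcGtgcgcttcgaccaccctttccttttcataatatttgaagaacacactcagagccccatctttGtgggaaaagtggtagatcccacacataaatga
Serpina1e: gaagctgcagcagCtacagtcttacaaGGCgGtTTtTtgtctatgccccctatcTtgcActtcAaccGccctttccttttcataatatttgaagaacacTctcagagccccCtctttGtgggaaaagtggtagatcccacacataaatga
Over the whole coding sequence of 1242 bases, *Serpina1b* differed from *Serpina1a* at 37 bases, *Serpina1c* at 19, *Serpina1d* at 42 and *Serpina1e* at 43. Of the bases shown, 8, 12, 10 and 15 differed. In the summed members, *Serpina1a* stood at 1638 and 1868 CPM (counts scaled to the same total of UMIs in each library) in the mutants and 2011 and 2056 in the controls. *Serpina1d* stood at 1135 and 1330 CPM against 1346 and 1401, and *Serpina1b* at 571 and 524 against 490.1 and 737. *Serpina1c* was under 60 CPM and *Serpina1e* under 10 CPM in every library. Neither *Serpina1b*, *Serpina1c* nor *Serpina1d*, which the rule did not use, passed the test between genotypes (adjusted p = 0.82, 0.19 and 0.72, edgeR).

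The members were chondrocytes by their markers. *Acan*, which encodes aggrecan, *Hapln1*, *Matn3* and *Col9a1*, which the rule did not use, were between 1992 and 4068 CPM in all libraries. *Col2a1*, whose level the rule itself required and which is no evidence of identity, was between 26541 and 32908. Of the 6 genes that had been named as marks of these cells, *Ppa1*, a cytosolic pyrophosphatase, stood at 2679, 3524, 2796 and 3080 CPM (mutants, then controls), and *C1qtnf3*, a secreted C1q-domain protein, at 118, 119.7, 123 and 111. Both overlapped between genotypes and neither passed the test (adjusted p = 0.31 and 0.48, edgeR). *Syt8*, a synaptotagmin, stood at 292 and 275 CPM in the mutants and 539 and 546 in the controls, and fell by 0.84 ± 0.09 (SE) on the log2 scale (adjusted p = 1.22e-04, edgeR). Of the 11 blood cell markers, *Ptprc* was at 0 in all libraries, while *Laptm5* stood at 5.79 and 10.4 CPM and *Lyz2* at 5.11 and 4.91 in the controls, against 0 and at most 0.644 in the mutants.

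Beside 3 other gated classes of chondrocytes, the members held the most *C1qtnf3*. Cells with at least 3 UMIs of *Ihh* and *Panx3* (1318 cells, prehypertrophic by these genes) had 30.2 to 44.9 CPM of *C1qtnf3*, cells with at least 5 UMIs of *Chil1* and *Sfrp5* (629 cells) 11.2 to 21.6, and *Col10a1*-high cells (1135, hypertrophic by this gene) 1.69 to 9.68, against 111 to 123 in the members. *Hhip*, a hedgehog-binding inhibitor and a target of the pathway, stood at 218 to 461 CPM in the members, 130.4 to 226 in *Chil1*/*Sfrp5* cells, 25.5 to 71.7 in *Ihh*/*Panx3* cells and 5.20 to 10.6 in *Col10a1*-high cells, so that the first 2 ranges overlapped. *Ppa1* was higher in *Ihh*/*Panx3* cells (4414 to 7807 CPM) than in the members, and *Apoe* was higher in *Chil1*/*Sfrp5* cells (1450 to 1731 CPM against 755.5 to 1355). *Epyc* in *Ihh*/*Panx3* cells (232 to 471 CPM) overlapped with the members (274 to 409.7). The gate set these groups apart by their counts, so none of these levels was tested. Over the 16 sums of 4 chondrocyte groups and 4 libraries, the genes whose log CPM followed *Epyc* most closely were *Car12*, *Rspo4*, *Gtf2f2*, *C1qtnf6* and *Rspo3* (Pearson's r 0.96 to 0.98). The sums share libraries and depth.

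The values of cells on both sides of the threshold follow, whose *Epyc* and *Serpina1a* levels the split itself set. The 24 cells with 3 or 4 UMIs of *Epyc* and *Serpina1a* had 174 CPM of *Epyc*, 177 of *Serpina1a*, 404 of *Syt8* and 1992 of *Col9a1*. The 88 cells with 5 to 9 UMIs had 276.5, 309.6, 419.5 and 2608 CPM, and the 503 cells with 10 or more had 374, 2157, 467 and 2436.

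The members made up a smaller part of the chondrocytes of the mutants. They were 5.92% (95% Clopper-Pearson interval 4.76 to 7.26) and 5.17% (4.14 to 6.37) of the chondrocytes of the mutant libraries, and 16.96% (14.9 to 19.2) and 18.5% (16.3 to 20.8) of those of the controls. The mean was 5.55% ± 0.53 (SD, n = 2) against 17.7% ± 1.07 (SD, n = 2), a ratio of 0.313, and both mutant libraries lay below both controls. With 2 libraries against 2 the smallest p that exact permutation (2-sided) allows is 0.333, which was reached. Of all barcodes that passed the filters they were 1.68% and 1.41% against 2.94% and 3.22%, while all chondrocytes were 28.3% and 27.2% against 17.3% and 17.4%. The number of cells in a library rests on digestion and depletion as well as on the tissue, so shares of cells are not shares of tissue, and the intervals cover counting error only. With chondrocytes of at least 5000 UMIs thinned to 5000 UMIs and gated again the shares were 5.52% and 5.57% against 17.8% and 19.9%. Chondrocytes with fewer UMIs were left out, 147 and 169 in the mutants and 70 and 53 in the controls. The cut on *Epyc* and *Serpina1a* kept 264 of 1019 and 268 of 1171 *Col10a1*-low chondrocytes in the mutants. In the controls it kept 568 of 1060 and 582 of 1054. *Epyc* in the members stood at 292 and 274 CPM in the mutants and 410 and 388 in the controls. Fewer such cells and less of these transcripts in each cell cannot be told apart by such a cut.

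**Figure D1:**
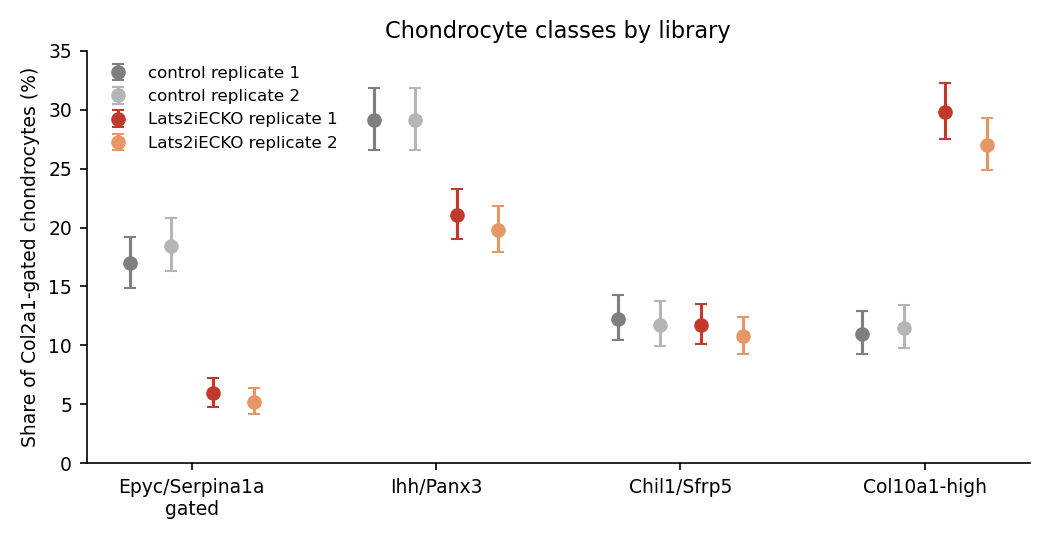
Share of Col2a1-gated chondrocytes (%) in each of 4 classes, 1 point a library with its 95% Clopper-Pearson interval. The Epyc/Serpina1a gated cells sit at 5.92% and 5.17% in the mutants and 16.96% and 18.5% in the controls, Col10a1-high cells at 29.8% and 27.0% against 11% and 11.5%.

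The other groups moved by different amounts. *Ihh*/*Panx3* cells were 21.1% and 19.8% of the chondrocytes of mutants and 29.1% in both controls, *Chil1*/*Sfrp5* cells 11.7% and 10.8% against 12.3% and 11.8%, and *Col10a1*-high cells 29.8% and 27.0% against 11% and 11.5%. As shares of 1 total they are not independent of each other. Among the members themselves, which by rule have under 20 *Col10a1* UMIs per 10000, *Col10a1* stood at 53.4 and 76.2 CPM in the mutants against 18.7 and 20.3 CPM in the controls. The estimated free RNA alone would give 30.3 and 39.5 CPM of *Col10a1* in the mutants, over 0.5 of what they held. In the controls it would give 23.3 and 28.4, which is more than they held, so the estimate is too high there for this gene.

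The members were not uniform. *Mgp*, an inhibitor of matrix calcification and with *Col2a1* the most abundant transcript of the members, ran in the cells of control replicate 1 from 35.97 UMIs per 10000 at the 10th percentile to 935 at the 90th, and from 38.9 to 852 in control replicate 2. In the mutants it ran from 23.02 to 842 and from 16.7 to 803. *Ppa1* ran from 0 to between 59.9 and 103 in the 4 libraries. Cells with more *Mgp* had less *Col2a1* (Pearson's r between -0.63 and -0.50 in the 4 libraries, over 83 to 220 cells), *Matn3* (-0.47 to -0.36) and *Col9a1* (-0.60 to -0.31), and more *C4b* (0.36 to 0.44) and *Apoe* (0.35 to 0.43). Cells with more *Ppa1* had more *Col9a1* (0.32 to 0.43) and less *Thbs1* (-0.48 to -0.38) and *Apoe* (-0.45 to -0.37). Cells with more *Fn1*, fibronectin, had more *Loxl2* (0.48 to 0.59), *Col6a2* (0.46 to 0.63) and *Nt5e* (0.40 to 0.58) and less *Ptch1* (-0.50 to -0.32). The immediate early genes *Fos*, *Fosb*, *Egr1* and *Junb* rose and fell together from cell to cell (*Fos* with the others, 0.76 to 0.88). These are correlations across cells of 1 library, whose counts share depth and sum to 1 total.

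**Figure D2:**
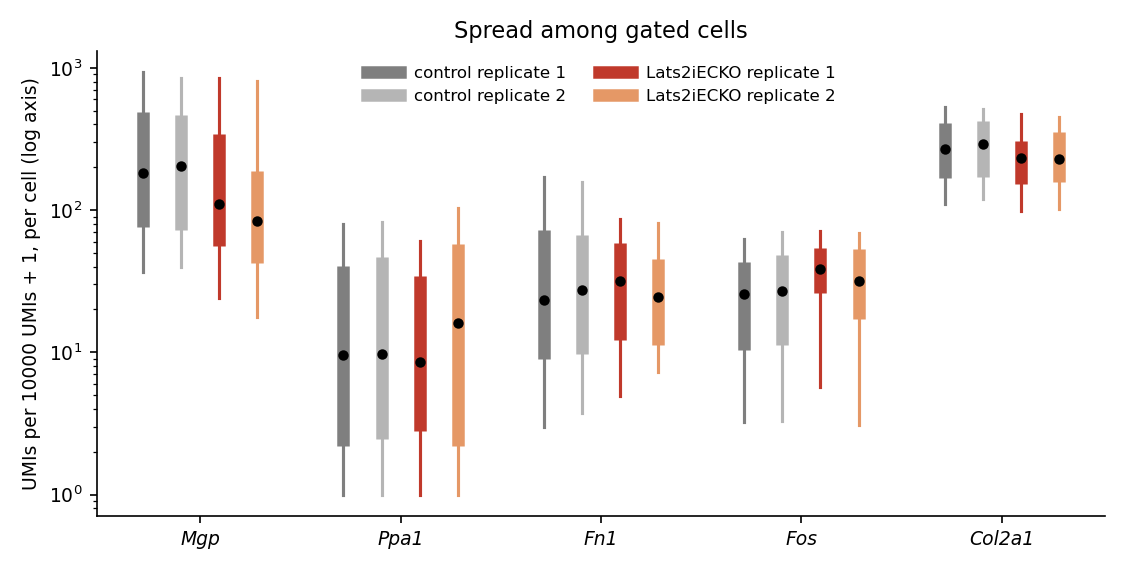
UMIs per 10000 UMIs plus 1 (log axis) of 5 genes in the cells of each library; thin lines run from the 10th to the 90th percentile, thick bars between the quartiles, and black dots are medians. The Mgp range spans over 10-fold in each library, with medians of 109 and 82.8 in the mutants and 181 and 202 in the controls.

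Between genotypes, the members' counts were summed per library and compared with edgeR. Of 7282 genes tested, 746 rose and 530 fell in the mutants at a Benjamini-Hochberg adjusted p of at most 0.05, or 17.5% of the genes in either direction (10.2% up, 7.28% down). The mutant and control libraries did not overlap in CPM for 61.2% of the genes, with both mutants above in 21.1% and below in 40.2%. Without the gate's own genes the counts were 745 and 529. At least a 2-fold change was seen in 199 of the genes that rose and 127 of those that fell. With DESeq2, the tool of the study's own comparisons, 446 rose and 208 fell. Fold changes are on edgeR's TMM scale, with a median over all genes of -0.0039; the ratio of plain CPM has a median of -0.11 on the log2 scale, so a CPM pair reads slightly lower in the mutants than its fold change. In sums over cells, a gene lost from some cells and a gene lowered in all cannot be told apart.

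Of the 23 gene lists compared, HIF targets and glycolysis had the highest median. The counts of every list stand beside 10.2% of all tested genes that rose and 7.28% that fell. Of 30 genes of this list that were tested, 26 rose, none fell and 4 did not pass, with a median log2 fold change of 0.94. A further 5 (*Pfkm*, *Pfkfb4*, *Egln3*, *Car9* and *Adm*) were too low to be tested. The glucose transporter *Slc2a1* stood at 102 and 94.1 CPM in the mutants and 46.7 and 45.8 in the controls (log2 fold change 1.19 ± 0.12 SE, adjusted p = 1.25e-04). The lactate and pyruvate transporter *Slc16a3* stood at 73.4 and 74.6 CPM against 19.1 and 19.96 (2.02 ± 0.16). Both transporters were 2-fold or more higher in each mutant library than in each control.

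Every step measured between glucose and lactate held at least 1 gene that rose. Hexokinase 2 (*Hk2*) stood at 120.3 and 105 CPM against 68.8 and 50.1, *Gpi1* at 173 and 162 against 96.4 and 98.6, and *Pfkp*, a phosphofructokinase, at 185 and 193 against 114 and 103. *Aldoa* stood at 405 and 435 CPM against 246 and 251, *Gapdh* at 879.8 and 926 against 468 and 474, *Pgk1* at 471 and 396 against 196 and 190.2, and *Eno1* at 962 and 923 against 544 and 541. *Pkm* stood at 693 and 607 CPM against 417 and 434 and *Ldha*, lactate dehydrogenase A, at 796 and 777 against 479 and 465. *Hk1*, the other hexokinase listed, stood at 118 and 110.4 CPM against 127 and 105 and did not pass (adjusted p = 0.69).

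HIF targets outside glycolysis ranged widely. *Bnip3*, which takes part in the removal of mitochondria, stood at 195 and 221 CPM against 44.6 and 51.9 (2.20 ± 0.12, adjusted p = 6.26e-06). *Ankrd37* stood at 35.4 and 30.3 CPM against 7.49 and 7.06 (2.28 ± 0.23), and *Vegfa*, the vascular endothelial growth factor, at 121 and 123 against 50.4 and 38.7 (1.56 ± 0.14). *P4ha2*, a prolyl hydroxylase of collagen, stood at 256 and 249 CPM against 107 and 97.7 (1.41 ± 0.10). *Ndufa4l2*, a mitochondrial protein induced by hypoxia that is not on the list, stood at 869.5 and 951 CPM against 155 and 175 (2.56 ± 0.10, adjusted p = 4.01e-07). *Hif1a* itself passed with a smaller change, 380.04 and 297 CPM against 283 and 278 (0.37 ± 0.11), a call lost with DESeq2 (adjusted p = 0.091) and without mutant replicate 1, control replicate 1 or control replicate 2. *Epas1* (0.25 ± 0.22), *Ddit4* (0.44 ± 0.14) and *P4ha1* (0.15 ± 0.12) did not pass.

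**Figure D3:**
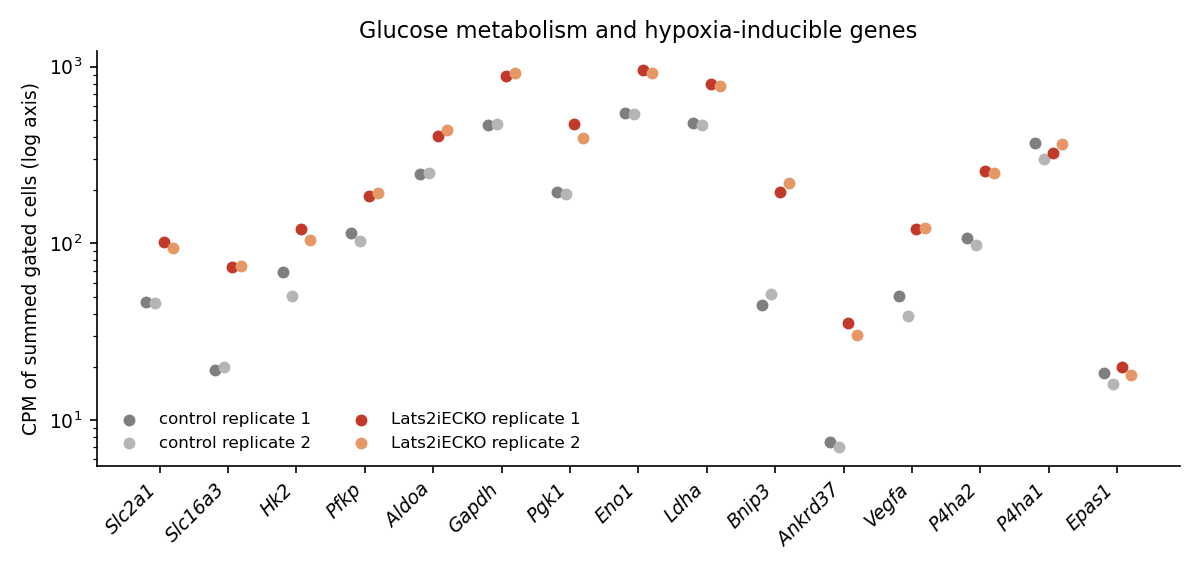
CPM of summed gated cells (log axis) for 15 genes of glucose metabolism and hypoxia response, 1 point a library. Bnip3 sits at 195 and 221 in the mutants and 44.6 and 51.9 in the controls, whereas the points of P4ha1 overlap.

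The list counts 25 to 26 of 30 with any 1 library left out, 26 without the cells that carry blood or endothelial markers, and 23 with 83 cells drawn from each library. HIF-1 binds short DNA motifs with the core ACGTG or GCGTG. Promoters of 300 bases (250 before to 50 after the start, RefSeq, GRCm38.p6) are shown for the 3 genes of the list with the largest rise, with every such core on either strand in capitals; neighbouring cores overlap where the capitals run past 5 letters (*Ankrd37* chr8:45999801-46000100 and *Bnip3* chr7:138909457-138909756, minus strand, *Slc16a3* chr11:120948817-120949116, plus strand).
Ankrd37: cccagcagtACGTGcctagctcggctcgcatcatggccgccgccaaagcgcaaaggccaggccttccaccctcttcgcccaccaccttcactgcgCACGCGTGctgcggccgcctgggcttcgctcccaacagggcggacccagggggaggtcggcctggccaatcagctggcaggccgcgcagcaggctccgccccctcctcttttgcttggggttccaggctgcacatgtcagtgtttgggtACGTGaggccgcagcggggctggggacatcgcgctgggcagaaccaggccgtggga
Bnip3: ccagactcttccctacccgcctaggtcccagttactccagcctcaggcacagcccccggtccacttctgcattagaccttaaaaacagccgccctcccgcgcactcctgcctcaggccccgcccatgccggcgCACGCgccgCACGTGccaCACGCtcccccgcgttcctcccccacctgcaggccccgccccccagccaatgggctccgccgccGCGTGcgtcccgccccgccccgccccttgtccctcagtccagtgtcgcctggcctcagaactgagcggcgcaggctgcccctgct
Slc16a3: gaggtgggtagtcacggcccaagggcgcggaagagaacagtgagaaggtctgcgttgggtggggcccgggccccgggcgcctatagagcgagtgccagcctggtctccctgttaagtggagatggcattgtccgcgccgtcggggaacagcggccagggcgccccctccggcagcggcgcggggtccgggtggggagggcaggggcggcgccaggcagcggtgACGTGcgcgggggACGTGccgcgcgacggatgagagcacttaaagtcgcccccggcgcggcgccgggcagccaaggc
The core ACGTG was in 16 of the 25 promoters found for list genes that rose (64.0%) and in 19.7% of 27025 promoters. Either core was in 20 of the 25 (80%) and in 43.8% of all. Over the whole list, chosen as HIF targets whether or not they rose, ACGTG was in 21 of 33 promoters (63.6%). Either core was in 27 of those 33 (81.8%), so the shares are those of the list and no trait of the genes that rose. *Vegfa*, the next gene by size, had no match in the window listed first for it. A match is a description of letters and not of binding.

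Matrix genes changed in both directions. Of 11 cartilage collagen genes tested (*Col2a1* and *Col10a1* left out), 5 fell and 2 rose. *Col11a1* stood at 4282 and 3847 CPM against 5640 and 5455 and fell by 0.35 ± 0.06, *Col11a2* stood at 1744 and 1814 against 2611 and 2538 and fell by 0.43 ± 0.06, and *Col9a1* fell by 0.22 ± 0.06. *Col9a2* (-0.09 ± 0.06) and *Col9a3* (-0.01 ± 0.06) did not pass. *Col12a1* (0.32 ± 0.07) and *Col6a2* (0.30 ± 0.08) rose. With DESeq2 1 rose and 2 fell, and the calls of *Col6a2* (adjusted p = 0.116) and *Col9a1* (0.158) were lost. Without control replicate 1 none rose and 3 fell, without mutant replicate 2 the counts were 1 and 3, and without control replicate 2 they were 1 and 4.

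Of 23 other matrix genes, 5 rose, 3 fell and 15 did not pass. *Acan* stood at 3011 and 3080.5 CPM against 4068 and 3888 and fell by 0.28 ± 0.06, *Prelp* fell by 0.31 ± 0.07 (adjusted p = 0.0503 without mutant replicate 2), and *Fn1* stood at 4404 and 3968 CPM against 8104 and 5906 and fell by 0.64 ± 0.12. The medians of *Fn1* between cells overlapped between genotypes, at 30.8 and 23.4 UMIs per 10000 in the mutants and 22.3 and 26.4 in the controls, and the 90th percentile 84.9 and 79.9 against 171 and 156. The *Fn1* call was lost with DESeq2 (adjusted p = 0.063), and its log2 fold change was -0.40 without control replicate 1. *Cytl1*, a small protein secreted by chondrocytes, stood at 2128 and 3328 CPM against 711 and 1106 (1.69 ± 0.22, adjusted p = 4.69e-04). *Omd*, osteomodulin, stood at 243 and 223 CPM against 60.6 and 78.0 (1.84 ± 0.13, adjusted p = 1.80e-05). *Comp*, the oligomeric matrix protein, rose by 0.34 ± 0.06 on the log2 scale. Between cells, *Cytl1* had a median of 14.1 and 19.8 UMIs per 10000 in the mutants and of 0.946 and 1.52 in the controls.

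Of 16 genes of sulfate and glycosaminoglycan synthesis, which include makers of the chondroitin sulfate chains of aggrecan, 5 fell and 3 rose. *Csgalnact1*, which starts chondroitin chains, stood at 171 and 168 CPM against 353 and 366 and fell by 0.98 ± 0.09 (adjusted p = 7.27e-05). *Papss2*, which makes the sulfate donor, fell by 0.63 ± 0.08, the chondroitin sulfotransferase *Chst11* by 0.52 ± 0.07 and the xylosyltransferase *Xylt1* by 0.46 ± 0.09. *Ust* (0.85 ± 0.15), *Ugdh* (0.60 ± 0.11) and *Has2* (0.60 ± 0.18) rose, but *Has2* lost its call with DESeq2 (adjusted p = 0.365), with no filter on genes and with any 1 library left out. Of 21 collagen processing genes 5 rose and 2 fell (5 and 4 without mutant replicate 2, 3 and 1 without control replicate 2); *Serpinh1*, the collagen chaperone, stood at 1527 and 1397 CPM against 2023 and 2115 and fell by 0.40 ± 0.07.

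Regulators of the chondrocyte state moved in both directions. *Sox9*, the factor that chondrocytes depend on, stood at 1212 and 1139 CPM against 1015 and 939 and rose by 0.37 ± 0.07, while *Sox5* fell by 0.36 ± 0.08 (not without control replicate 1, adjusted p = 0.055) and *Sox6* did not pass (-0.09 ± 0.10). *Runx2*, which drives hypertrophy and bone formation, stood at 255.5 and 274 CPM against 495 and 493 and fell by 0.80 ± 0.09 (adjusted p = 1.84e-04). *Nfatc1* rose by 0.88 ± 0.09 and *Cebpb* by 1.22 ± 0.16. In all, 4 of 21 transcription factors rose, 4 fell and 13 did not pass. Of 13 genes of hypertrophy outside the gate, 2 rose and 5 fell. Among these, *Alpl*, alkaline phosphatase, stood at 74.7 and 79.3 CPM against 196 and 222 and fell by 1.34 ± 0.12 (adjusted p = 5.64e-05), and *Slc13a5* fell by 1.02 ± 0.12. The falls also hold *Runx2* and *Pth1r*, which other lists count too. *Vegfa*, of this list and the HIF list, rose by 1.56 ± 0.14. *Mmp13*, too low to be tested, stood at 24.5 and 15.5 CPM in the mutants against 6.13 and 9.21 in the controls.

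Of 10 tested genes of the hedgehog and PTHrP pathway, 5 fell and none rose, with a median of -0.42. The receptor and target *Ptch1* stood at 384 and 333.5 CPM against 613 and 625 and fell by 0.69 ± 0.09. *Hhip* stood at 241 and 218 CPM against 461 and 446 and fell by 0.88 ± 0.09 (adjusted p = 1.31e-04), *Gli2* fell by 1.06 ± 0.17 and *Smo* by 0.47 ± 0.13, a call of *Smo* that was lost with DESeq2 (adjusted p = 0.172) and without mutant replicate 1 or control replicate 2. *Pth1r*, the receptor of parathyroid hormone-related protein, stood at 571.5 and 582 CPM against 898 and 949 and fell by 0.58 ± 0.08. *Gli1* (-0.29 ± 0.25, 11.7 to 19.8 CPM) and *Gli3* (0.02 ± 0.11) did not pass. The count was 4 to 5 with a library left out.

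Of 23 genes of BMP and TGF-beta signalling, 9 rose and 3 fell (median 0.39). *Id1*, *Id2* and *Id3*, targets of BMP signalling, rose by 0.56 ± 0.09, 0.77 ± 0.08 and 1.03 ± 0.10. *Smad7*, an inhibitor of the pathway, stood at 113 and 93.3 CPM against 34.1 and 46.4 (1.46 ± 0.17), and the secreted *Tgfbi* at 254 and 217 against 90.6 and 82.9 (1.54 ± 0.11, adjusted p = 2.03e-05). The receptors *Tgfbr2* and *Tgfbr3* fell by 0.46 ± 0.10 and 0.68 ± 0.12. With DESeq2 7 rose and 1 fell, and *Tgfbr2* did not pass (adjusted p = 0.074), nor did it without control replicate 1. Of 16 genes of FGF and IGF signalling 4 rose and 4 fell: *Socs2*, a brake on growth hormone signalling, rose by 1.34 ± 0.11, *Irs2* by 1.36 ± 0.17 and *Igf1r* by 0.61 ± 0.09, and *Fgfr3* fell by 0.40 ± 0.12. With control replicate 1 or control replicate 2 left out 4 rose and 2 fell, with DESeq2 3 and 2, and *Fgfr3* lost its call in each of these and without mutant replicate 1. Of 11 WNT genes *Wif1* rose (1.43 ± 0.22) and *Rspo3* fell (by 0.68 ± 0.14), which is near the shares over all genes tested, 10.2% up and 7.28% down. In this list 2 rose without mutant replicate 1, mutant replicate 2 or control replicate 1, and 2 fell without mutant replicate 2.

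Of 27 immediate early and heat shock genes, 15 rose and 6 fell, and those that fell were 5 heat shock genes and *Ier2*, whose call was lost with DESeq2 and without control replicate 2. *Atf3* stood at 447 and 485 CPM against 212 and 240.5 (1.14 ± 0.10), *Klf2* at 375 and 421 against 157 and 159 (1.43 ± 0.10), *Dusp1* rose by 0.93 ± 0.09 and *Fos* by 0.49 ± 0.07. *Jun* did not pass (0.04 ± 0.07). Of the heat shock genes, *Hspa1b* stood at 98.7 and 78.2 CPM against 425 and 450.0 and fell by 2.20 ± 0.12 (adjusted p = 3.90e-06), *Hspa1a* fell by 1.23 ± 0.09 and *Hsph1* by 1.14 ± 0.15. Of 23 genes of the unfolded protein response 3 rose (*Dnajb9*, *Atf6*, *Ssr4*) and 1 fell (*Ddit3*, by 0.54 ± 0.13). These shares are near those over all genes tested, 10.2% up and 7.28% down. The call of *Ddit3* was lost with DESeq2 and without control replicate 1. That of *Ssr4* was lost with DESeq2 and without mutant replicate 1 or either control. *Hspa5* stood at 596 and 510 CPM against 595 and 554.

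Of 19 targets of YAP1 and TAZ, the factors that LATS kinases restrain, 4 rose, 4 fell and 11 did not pass. The counts were 5 and 2 without mutant replicate 2 or control replicate 2, 3 and 2 without control replicate 1, and 4 and 1 with DESeq2. *Ccn2* stood at 1377 and 1339 CPM against 522 and 687 (1.27 ± 0.12), whereas *Ccn1* stood at 951 and 797 against 840.3 and 831 and did not pass (adjusted p = 0.24). *Foxf2* fell by 1.27 ± 0.29, a call lost with DESeq2 (adjusted p = 0.201) and without mutant replicate 2 (0.073). *Lats2* itself stood at 41.5, 51.3, 39.0 and 50 CPM in the 4 libraries (adjusted p = 0.69). Cre-ERT2 was at 0 in all of them, as was the rule's *Cdh5*.

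**Figure D4:**
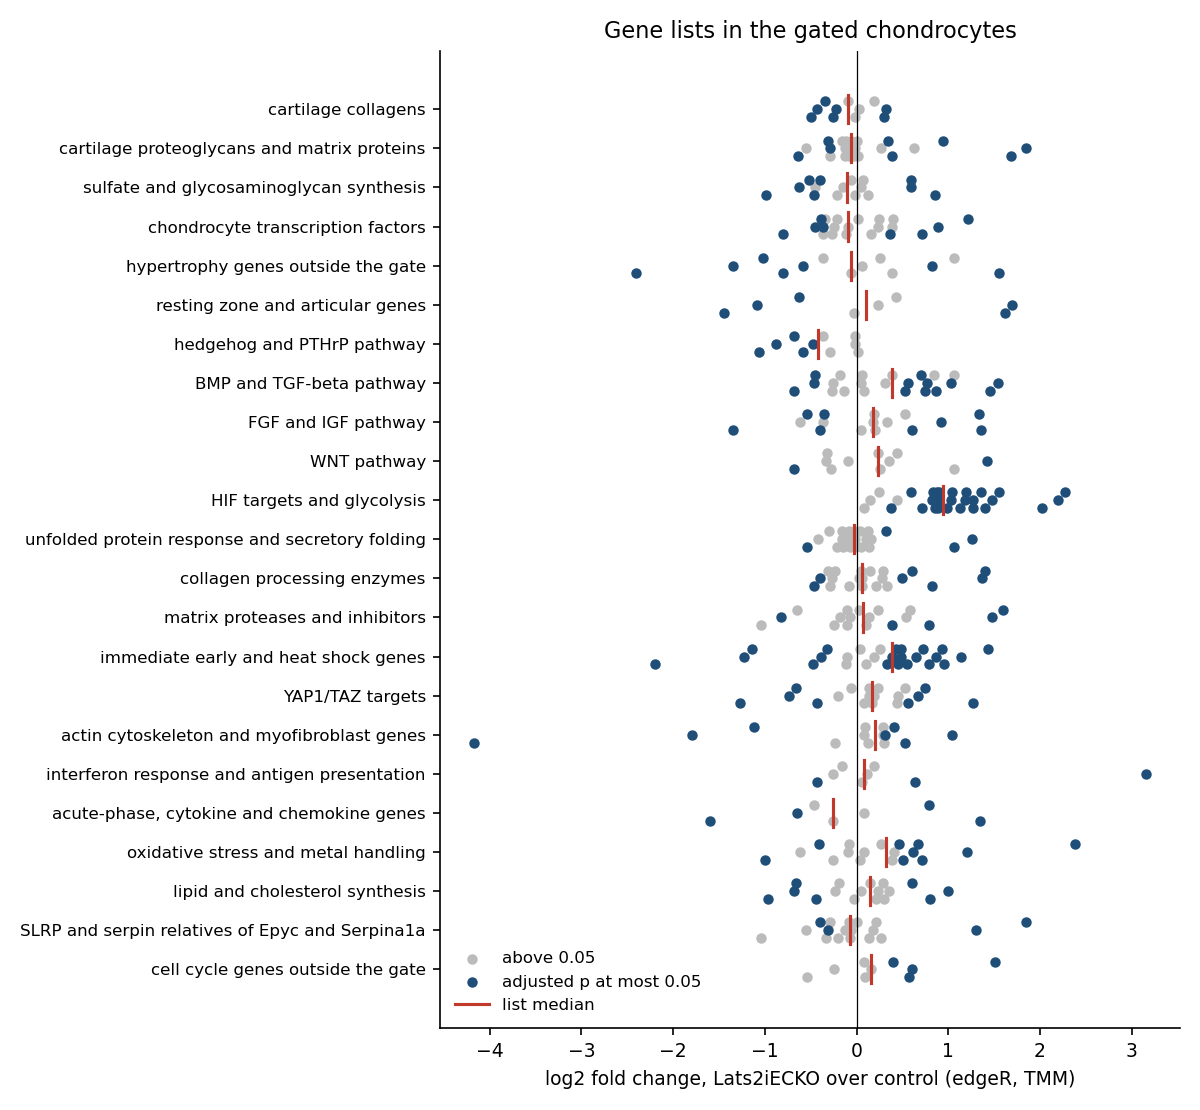
Log2 fold change of mutants over controls for the tested genes of 23 lists, 1 point a gene, dark where the adjusted p was at most 0.05; red marks are list medians. The median of HIF targets and glycolysis is 0.94 and that of the hedgehog and PTHrP pathway -0.42, beside a median of -0.0039 over all genes.

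The remaining lists were mixed, and between 0 and 19 members of a list were too low to be tested. Of 18 genes of oxidative stress and metal handling 7 rose and 2 fell, among them metallothionein *Mt1* at 434 and 315 CPM against 63.4 and 89.99 (2.39 ± 0.18) and the ferritin chain *Fth1* (0.46 ± 0.06). Of 18 genes of proteases and inhibitors 4 rose, among them the aggrecanase *Adamts5* (1.60 ± 0.25), *Adamts1* (1.48 ± 0.21) and *Cst3*, cystatin C, at 11351 and 12310 CPM against 6978 and 7696, and 1 fell. Of 9 cell cycle genes 4 rose, among them the inhibitor *Cdkn1a* at 125 and 121 CPM against 33.7 and 58.4 (1.51 ± 0.20). Of 8 tested genes of the resting zone and articular cartilage, *Cilp* and *Creb5* rose and *Apoe*, *Clu* and *Prg4* fell. *Prg4* was detected in 32.6% and 34.9% of the mutant cells and 21.3% and 27.3% of control cells, its call was lost with DESeq2 (adjusted p = 0.485), and its log2 fold change was -0.74 without mutant replicate 1 and -2.61 without mutant replicate 2. Lipid synthesis had 3 up and 4 down of 17, with the regulator *Srebf1* down by 0.96 ± 0.12. The actin list had 4 up and 3 down of 14, cytokine genes 2 and 2 of 7, and the relatives of *Epyc* and *Serpina1a* 2 and 2 of 18. For the relatives this is near the shares over all genes tested, 10.2% up and 7.28% down. These small counts moved with single libraries: without mutant replicate 1, proteases had 7 up and 2 down, lipid synthesis 1 and 4 and the actin list 2 and 3, and with DESeq2 these 3 lists had 3 and 1, 1 and 3, and 1 and 2. Without control replicate 1 the actin list had 2 and 3 and the cell cycle list 2 and 0, as many as with DESeq2.

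Of 8 antigen presentation genes that were tested, *H2-Ab1* and *Stat2* rose and *H2-D1* fell; 1 rose and none fell with DESeq2 or without mutant replicate 1, control replicate 1 or control replicate 2, where *Stat2* and *H2-D1* lost their calls. *H2-Ab1*, the beta chain of an MHC class II molecule, stood at 95.3 and 90.9 CPM against 11.9 and 10.4 (3.16 ± 0.17, adjusted p = 3.90e-06) and was detected in 41.9% and 50.6% of the mutant cells and in 8.42% and 9.09% of control cells. Its partner genes stayed near 0: *H2-Aa* was at 0.644 to 2.72 CPM, *H2-Eb1* at 0.341 to 3.11 and *Cd74* at 0.614 to 1.29. Free RNA was estimated at 0.782% to 2.10% of the members' UMIs, and *H2-Ab1* was at 72.3 and 65.2 CPM in the empty droplets of the mutants and 4.73 and 6.70 in those of the controls. Taken at those shares, the droplet levels would give only a small part of the CPM that the mutant members held. The source of *H2-Ab1* was not tested.

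Among genes of at least 20 CPM that are not copies of ribosomal protein genes, the largest rises after *H2-Ab1* were in *Ackr3*, a receptor that takes up the chemokine CXCL12 (59.9 and 34.98 CPM against 7.83 and 4.61), *Mgarp*, a mitochondrial protein (43.1 and 38.1 against 5.79 and 7.99), and *Ndufa4l2*. *Myoz3* and *Rcan1*, whose products bind calcineurin, rose by 2.49 ± 0.25 and 2.44 ± 0.29, *Dusp8* and *Noct* by 2.48 and 2.45, and *Enpp2*, autotaxin, by 2.29 ± 0.21. Among genes that fell, *Fam155a*, part of a sodium leak channel complex, stood at 33.7 and 57.9 CPM against 312 and 383 (-2.86 ± 0.19) and was detected in 11.6% and 10.8% of the mutant cells and in 47.5% and 48.6% of control cells. *Rgs6* (-2.08 ± 0.17), *Piezo2* (-2.06 ± 0.31), *Luzp2* (-2.02 ± 0.27), *F13a1* (-2.30 ± 0.35) and *AI646519* (-1.999 ± 0.24) also fell.

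Of the other largest falls, those of *Itga6*, *Tmsb4x* and *Col1a1* shrank once cells with markers of other cell types were left out. That of *Spp1* did not. *Itga6* (22.5 to 23.2 against 220.1 and 251 CPM) and *Tmsb4x* (50.8 and 104 against 317 and 440.4) stood at 21.5 to 23.7 against 24.2 and 35.3, and at 50.2 and 101 against 73.3 and 86.4, once 29 cells with at least 3 UMIs of blood or endothelial markers were left out, and their fold changes were then -0.30 and -0.017 on the log2 scale. *Col1a1* (56.0 and 90.9 against 806 and 1994 CPM) stood at 56.0 and 71.5 against 197 and 216 without the 15 cells in which osteoblast markers were at least 1% of UMIs, with a fold change of -1.60, and *Col1a2* changed sign to 0.12 and no longer passed. The estimated free RNA alone would give 39.9 and 46.6 CPM of *Col1a1* in the mutants and 283 and 383 in the controls, which is more than the controls held without those cells. Likewise it would give 102 and 134 CPM of *Hbb-bs* in the controls, which held 81.3 and 78.5. The source of what was left of *Col1a1* was not tested. *Spp1*, osteopontin, stood at 107 and 134 CPM against 425 and 938 and kept a fold change of -2.45 without those cells; free RNA would give it 30.5 and 45.5 against 53.3 and 65.5. The 10 osteoblast markers summed to 815 and 1290 CPM in the members of the mutants and 2413 and 7416 in those of the controls, where *Bglap* alone stood at 731 and 2788. The 11 blood cell markers summed to 4.51 and 1.55 CPM in the mutants against 19.8 and 18.4 in the controls, and the 9 endothelial markers to 30.6 and 50.1 against 68.5 and 65.7, so that both sums were lower in both mutants, as *Itga6* and *Tmsb4x* were. The 8 erythroid markers, mostly haemoglobin, summed to 416 and 546 against 212 and 287. *Hbb-bs* stood at 236 and 328 against 81.3 and 78.5 CPM in the members and at 27835 and 28840 against 6300 and 6385 in the empty droplets. *Hba-a2* and *Hbb-bt* were higher in the mutant members too. *Hba-a1* was lower, at 59.1 and 74.0 against 74.7 and 140 CPM, and did not pass, although the empty droplets held 9198 and 9047 against 2731 and 2806. Reads that match both *Hba-a1* and *Hba-a2* were also shared out by expectation maximization, so the level of either copy is uncertain. The share of free RNA was estimated by taking all UMIs of the blood cell and erythroid markers as free. It therefore cannot tell where the haemoglobin of the members came from, which was not tested.

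Whether the genotype changed genes by other amounts in the members than in the other chondrocytes was tested in 1 fit with both classes. Against *Ihh*/*Panx3* cells, 45 of 7839 genes differed (0.574%), 16 (0.204%) with a more positive effect in the members and 29 (0.370%) with a more negative one. Without mutant replicate 1 the counts were 105 and 101, without mutant replicate 2 they were 97 and 122, and without control replicate 1 or 2 the genes with a more positive effect were 6 or 2 and, without control replicate 2, those with a more negative one 8. Against *Chil1*/*Sfrp5* cells 140 of 7684 genes differed (1.82%), 88 (1.15%) and 52 (0.677%); without mutant replicate 1, mutant replicate 2 or control replicate 1 the counts were 185 and 135, 151 and 109, or 156 and 134. Against *Col10a1*-high cells 1068 of 7849 genes differed (13.6%), 566 (7.21%) more positive in the members and 502 (6.40%) more negative.

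For HIF targets and glycolysis these contrasts differed by class. Against *Col10a1*-high cells the effect in the members was more negative for 22 of 33 list genes tested and more positive for none: *Pgk1* rose by 1.27 ± 0.10 in the members and by 3.12 in *Col10a1*-high cells (difference -1.80 ± 0.13, adjusted p = 1.57e-05), and *Slc16a3* by 2.02 and 4.84. Against *Ihh*/*Panx3* cells none of 31 differed at the threshold, with a median difference of -0.097. Against *Chil1*/*Sfrp5* cells 4 of 30 were more positive in the members. In that class on its own 14 of 30 rose and none fell, beside 316 of 7074 genes that rose and 241 that fell. *Col9a1* fell less in the members than in *Col10a1*-high cells (difference 1.10 ± 0.09, adjusted p = 2.25e-05), and the effect was more positive in the members for all 11 cartilage collagens tested.

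**Figure D5:**
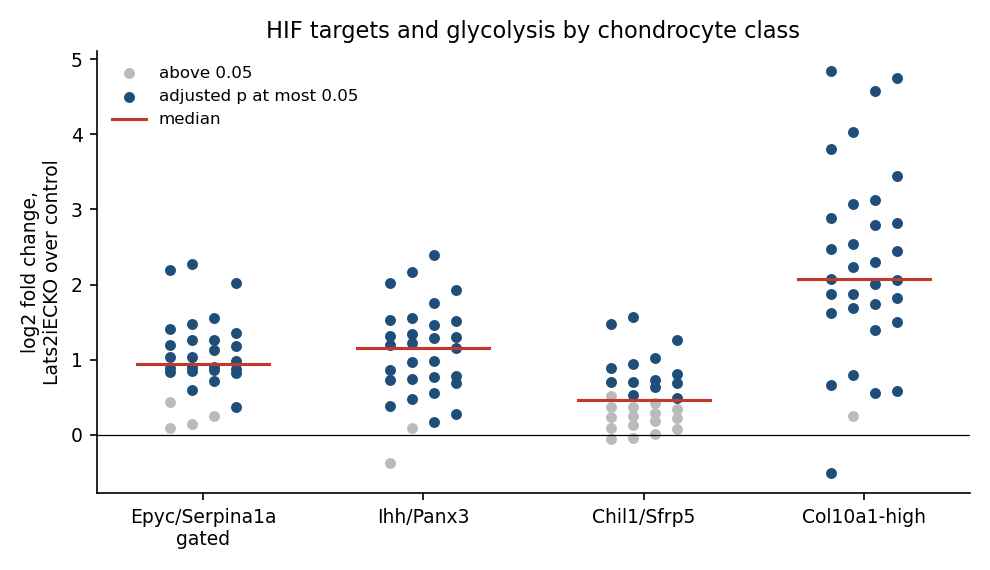
Log2 fold change of mutants over controls for genes of the HIF and glycolysis list in 4 chondrocyte classes of the same libraries, 1 point a gene, dark where the adjusted p was at most 0.05, with red lines at the medians. The median is 0.94 in the gated cells, 1.16 in Ihh/Panx3 cells, 0.46 in Chil1/Sfrp5 cells and 2.08 in Col10a1-high cells.

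*Syt8*, which fell in the members, fell by 1.28 in *Ihh*/*Panx3* cells, 2.01 in *Chil1*/*Sfrp5* cells and 1.84 in *Col10a1*-high cells on the log2 scale. The differences from the members passed for the last 2 (adjusted p = 0.0024 and 4.08e-04) and not for the first (0.081). *Alpl* fell further in the members than in *Ihh*/*Panx3* cells (difference -0.76 ± 0.10, adjusted p = 0.017) and *Chil1*/*Sfrp5* cells (-1.06 ± 0.18), and less than in *Col10a1*-high cells (0.40 ± 0.12, adjusted p = 0.046). *Enpp2* rose more in the members than in *Ihh*/*Panx3* cells (difference 1.79 ± 0.22) and *Chil1*/*Sfrp5* cells (1.32 ± 0.18), and in *Col10a1*-high cells it fell by 1.17 (difference 3.52 ± 0.27). Without control replicate 2 the differences from *Ihh*/*Panx3* cells were no longer called for *Enpp2* (1.67, adjusted p = 0.068) and *Alpl* (-0.71, adjusted p = 0.119), and that of *Alpl* from *Col10a1*-high cells was lost without mutant replicate 1, mutant replicate 2 or control replicate 1 (adjusted p = 0.067, 0.193 and 0.161). The difference of *Syt8* from *Ihh*/*Panx3* cells passed without either mutant replicate (adjusted p = 0.031 and 0.035).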

How the data were processed

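The deposited values were estimated counts of UMIs per gene and barcode, unfiltered. The authors trimmed reads with cutadapt 3.5 and aligned them with STARsolo 2.7.10a to GRCm39 (mm39 in the submitters' processing notes) with GENCODE genes and the CreERT2 and reporter sequences, over exons and introns, and shared reads of several genes by expectation maximization, which splits reads between near-identical genes. Between 9.09% and 9.95% of the entries were not whole.

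Here barcodes were filtered and gated as described in the results, members' counts were summed per library and rounded, and genes were tested with edgeR 4.0.16 (TMM, quasi-likelihood F test, Benjamini-Hochberg adjustment; R 4.3.3) when they passed filterByExpr and were detected in at least 20% of the members of 1 genotype. A symbol with several gene IDs was taken at the ID with the highest mean. A standard error is the log2 fold change divided by the square root of F. Effects were compared between classes in 1 edgeR fit with a term for each library. DESeq2 1.42.0, other gates, filters, scalings, depths and cell numbers were alternatives. 2-sided exact permutation tests served for shares. The scripts were tested on simulated data. No doublet caller was run; cells with markers of other types were left out as an alternative. Free RNA was estimated from barcodes with at most 100 UMIs, with all UMIs of 11 blood cell and 8 erythroid markers in the members taken as free. Members and gene lists were chosen with earlier results of these data known. Named genes were the 12 largest rises and falls with a mean of at least 20 CPM and no overlap between genotypes, up to 4 passing members and 1 or 2 best known members of each list, the gate and marker genes, up to 5 class differences each way, and 5 genes most like Epyc. Gate genes, predicted genes and ribosomal copies were left out of the first of these, and some genes that met the rule are not reported here. Members per library summed to between 1286479 and 3256016 UMIs.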

Additional observations from a re-analysis of the deposited data

Results flagged for a closer look

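The 30 class differences below passed the test of the difference between genotype effects (edgeR, adjusted p at most 0.05) and are the 5 largest each way with a mean of at least 20 CPM. Each value is the genotype effect (mutants over controls, log2 scale) in the *Epyc*/*Serpina1a* cells minus the same effect in the other class.

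Against *Col10a1*-high cells the difference was -6.06 for *Ptges*, -5.64 for *Rgs6*, -5.32 for *Alox12*, -5.01 for *Tmem119* and -4.66 for *A2m*. It was 3.52 for *Enpp2*, 2.55 for *Cytl1*, 2.47 for *Tox*, 2.46 for *Stc2* and 2.45 for *Slc8a3*. *Enpp2*, *Cytl1*, *Stc2* and *Slc8a3* had positive fold changes in the members (2.29, 1.69, 1.18 and 1.00) and negative ones in *Col10a1*-high cells (-1.17, -0.83, -1.23 and -1.39). The call of *Tox* was lost without mutant replicate 2 (1.44, adjusted p = 0.129, edgeR).

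Against *Ihh*/*Panx3* cells the difference was -3.63 for *Rbp4*, -3.29 for *Nrgn*, -3.16 for *Spp1*, -2.86 for *Rgs6* and -2.49 for *Tnn*. It was 1.96 for *H2ac24*, 1.79 for *Enpp2*, 1.64 for *Slc8a3*, 1.03 for *Tgfbi* and 0.83 for *Hbb-bs*. The UMIs of *Hbb-bs* in the members were taken as free when free RNA was estimated, and their source was not tested. Without control replicate 2 the calls of *Enpp2* (1.67, adjusted p = 0.068, edgeR), *Tgfbi* (0.84, 0.134), *Hbb-bs* (0.66, 0.378), *Nrgn* (-3.04, 0.0899) and *Tnn* (-2.81, 0.0518) were lost, and without control replicate 1 that of *H2ac24* (1.51, 0.127). Without the filter on the share of cells those of *Hbb-bs* (0.056) and *Spp1* (0.0572) were lost.

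Against *Chil1*/*Sfrp5* cells the difference was -3.65 for *Prg4*, which encodes lubricin, -3.15 for *Itga6*, -3.11 for *Spp1*, -2.83 for *Ltbp1* and -2.60 for *Tmsb4x*. It was 2.25 for *Mdga2*, 1.97 for *Myoz3*, 1.96 for *Sphkap*, 1.79 for *Tgfbi* and 1.76 for *Arsi*. The call of *Sphkap* was lost without mutant replicate 2 (1.44, adjusted p = 0.0714, edgeR). The values of *Itga6* and *Tmsb4x* in the members rest on cells with blood or endothelial markers.

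A gene entered these fits when either class passed the filter on the share of cells. *Ptges*, *Alox12*, *Tmem119*, *Tox*, *Rbp4*, *Nrgn*, *Tnn*, *H2ac24*, *Ltbp1* and *Sphkap* did not pass the filter in the members alone. Conversely, *Rgs6* and *A2m* did not pass it in *Col10a1*-high cells, *Rgs6* in *Ihh*/*Panx3* cells and *Tgfbi* in *Chil1*/*Sfrp5* cells. In *Col10a1*-high cells of the controls *Rgs6* stood at 0.65 and 0.42 CPM and *A2m* at 0.43 and 2.12. For genes near 0 in a class the fitted difference depends on the prior count and is no bound.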

How the results depend on the processing

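With 2 libraries a genotype and 83 to 220 cells a library, low genes are measured coarsely. DESeq2 called 446 genes higher and 208 lower. With 83 cells from each library the counts were 419 and 243, and with cells thinned to 3000 UMIs, where 2088 genes were tested, 271 and 186. With no filter on genes, 23587 were tested, of which 931 rose and 1000 fell, so that 48.2% of calls were higher in place of 58.5%. With a library left out, 600 to 710 rose and 370 to 504 fell. Of the 1276 calls, 654 held their direction and passed with DESeq2, 639 with equal cells, 404 of 672 tested with thinned cells, and 1203 with the replicate block. The replicate block gave 740 and 520, and the deviations of same-numbered libraries correlated by 0.025 over genes. The labels give such libraries only a common number. A single correlation cannot tell whether they shared a litter or a preparation.

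Class differences moved more. Against *Ihh*/*Panx3* cells the counts ran from 2 to 105 more positive and from 8 to 122 more negative with a library left out, and 7 were more positive without the filter on the share of cells. Against *Chil1*/*Sfrp5* cells they ran from 111 to 185 and from 69 to 135. The cause was not tested.

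Leaving out cells with at least 3 UMIs of blood, erythroid, endothelial or mural markers, as planned, kept 1, 2, 11 and 13 members, too few for a gene test. The ratio of shares of filtered barcodes was then 0.152 in place of 0.501. These shares are of all filtered barcodes, with cells that carry the markers still counted, so the 2 ratios are not alike. As a share of chondrocytes, where such cells were left out of both counts, the ratio was 0.319, beside 0.313. Narrower marker sets were therefore chosen after seeing the data. Of 187 named or listed genes, 82 lost their call in at least 1 setting and 1 reversed: *Col1a2*, from -1.79 to 0.12 without cells with osteoblast markers (adjusted p = 0.427, edgeR). *Itga6*, *Spp1* and *Tmsb4x* lost their calls with equal cells.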

Other observations

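Genes of cytosolic ribosomal proteins, grouped by symbol after their values were seen, were higher in the mutant members: of 87 tested, 81 rose and none fell, with a median log2 fold change of 0.54, and they summed to 181900 and 185100 CPM in the mutants against 133200 and 136400 in the controls. The copy *Rps3a3* stood at 405 and 523 CPM against 7.53 and 9.54, while *Rps3a1*, its near-identical relative, stood at 3705 and 3712 against 2717 and 2904, and reads of such copies cannot be told apart with certainty. Of 13 mitochondrially encoded protein genes, *mt-Nd6* rose (1.79) and *mt-Nd4* fell (-0.24).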
